A study of Homo sapiens with 40 samples.

Results

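The T-box transcription factor genes form a family defined by a shared DNA-binding domain, and 10 of them are described here by their H3K27me3 in a myeloma line before and after loss of NSD2. The 10 genes were TBX1, TBX2, TBX3, TBX4, TBX5, TBX15, TBX18, TBX20, TBX21 and EOMES, out of 17 human T-box genes and 19451 protein-coding genes scored. They were chosen as a family because EOMES had gained and TBX5 had lost coverage after NSD2 degradation in these same data. The values behind that choice, those of the dTAG clones over time, are therefore given as a description with no test.

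All libraries came from KMS-11, an established line of human multiple myeloma with the t(4;14) translocation, which drives overexpression of the histone methyltransferase NSD2. In the knockout experiment, NSD2 KO clones 3 and 12 were compared with the wild-type (WT) line they came from, called the KO parental line, all untreated. In the degradation experiment, 2 knock-in clones (8 and 11) that carry a dTAG degradation tag on NSD2, and the WT parental line of those clones, were sampled at days 0, 7, 14 and 21 of dTAGV-1, a compound that recruits the VHL ubiquitin ligase to tagged proteins. The dose was 100 nM for the tagged cells, and no dose was found in the labels for the parental line. Each engineered group is a single clone. Each of the 15 groups had 2 libraries, 30 in all. The labels do not say whether the 2 parental libraries of a group were separate cultures, and p-values that use them then cover only the variation between libraries, possibly technical.

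Polycomb repressive complex 2 places H3K27me3 on silent developmental genes, often around CpG-rich start sites, and T-box genes are classic targets because each is needed in only a few tissues. NSD2 places H3K36me2, a mark on the same histone tail that hinders H3K27 methylation. Among the genes described, TBX5, TBX20, TBX1 and TBX18 act in the heart and its outflow or pacemaker regions, TBX2 and TBX3 are repressors of the same organ and of the limb, TBX4 acts in hindlimb and lung, and TBX15 in the skeleton. TBX21 (which encodes T-bet) and EOMES direct effector T cells and natural killer cells.

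The assay was CUT&Tag: an antibody to H3K27me3 brings a transposase to the mark, and the DNA cut there is sequenced. The measure was the percent of a gene's annotated bases that lay inside the merged peaks of a library, so a value shows how much of the gene was called as marked, not how strongly. The mark is an average over many nuclei, and more cells with the mark cannot be told apart from more mark per cell. Peak lists covered 36.1 to 168 Mb, with a mean of 67.4 Mb ± 19.3 (SD, n = 2) in the KO parental line and 130 Mb ± 30.7 (SD, n = 4) in the KO clones. The lists of the dTAG clones averaged 50.7 Mb on day 0 (SD 14.1, n = 4) but 120 Mb on day 21 (SD 29.9, n = 4). Read depth was not listed, and estimated background pileup ran from 0.922 to 3.26 fragments per position. NSD2 protein cannot be read from peak lists, so "depleted" below refers to the labels: 16 libraries (4 of the KO clones and 12 of the dTAG clones at days 7 to 21) against 14 others (10 of the parental lines at any day and 4 of the dTAG clones at day 0). As a check of the labelled cell type, the 8 plasma cell genes followed had median coverage of 0% (TNFRSF17, and JCHAIN, the joining chain of secreted antibodies, which was at 0% in all 30 libraries) to 8.75% (MZB1), with XBP1 at up to 35.4%. Medians of 6 T and NK cell genes ran from 0.856% (CD3E) to 77.4% (GNLY) and those of 4 monocyte genes from 0% (CD14) to 13.6% (CSF1R), so the ranges overlapped.

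Start sites of the members differed in sequence and in marking, and the windows that the results turn on are shown first. RefSeq promoter windows on GRCh38.p14, 300 bases from 250 before to 50 after a start, matched 7 of the 10 members with 8 windows. TBX2, TBX3 and TBX15 were without an entry. The 250 bases before the start are given 5′ to 3′ on the gene's strand in lower case, with each CpG in capitals, for the genes that were marked at the start in a larger share of depleted than of other libraries (TBX18, TBX20), never marked there (TBX5) and always marked there (TBX21). The EOMES window lies inside the annotated gene, so only 30 bases just upstream of the start are shown, with the letters TATAA in capitals.
EOMES, chr3:27722335-27722364, minus strand: ccatcctgccttTATAAtaaggccaccgga
TBX18, chr6:84764599-84764848, minus strand: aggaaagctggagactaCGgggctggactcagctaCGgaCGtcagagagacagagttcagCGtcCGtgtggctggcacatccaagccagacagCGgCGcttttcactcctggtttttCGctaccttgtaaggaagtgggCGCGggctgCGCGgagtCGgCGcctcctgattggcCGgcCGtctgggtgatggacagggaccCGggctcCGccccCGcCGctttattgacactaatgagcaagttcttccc
TBX20, chr7:35254101-35254350, minus strand: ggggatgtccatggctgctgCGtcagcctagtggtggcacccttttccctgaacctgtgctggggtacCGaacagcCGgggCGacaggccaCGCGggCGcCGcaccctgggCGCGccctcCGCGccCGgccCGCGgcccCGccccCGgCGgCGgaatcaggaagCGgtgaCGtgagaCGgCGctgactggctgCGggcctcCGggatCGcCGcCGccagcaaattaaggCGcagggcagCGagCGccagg
TBX5, chr12:114408443-114408692, minus strand: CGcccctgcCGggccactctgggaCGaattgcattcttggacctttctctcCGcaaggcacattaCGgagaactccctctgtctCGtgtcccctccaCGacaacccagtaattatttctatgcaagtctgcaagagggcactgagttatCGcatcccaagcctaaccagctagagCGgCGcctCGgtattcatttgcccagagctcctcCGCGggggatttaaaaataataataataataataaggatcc
TBX21, chr17:47732986-47733235, plus strand: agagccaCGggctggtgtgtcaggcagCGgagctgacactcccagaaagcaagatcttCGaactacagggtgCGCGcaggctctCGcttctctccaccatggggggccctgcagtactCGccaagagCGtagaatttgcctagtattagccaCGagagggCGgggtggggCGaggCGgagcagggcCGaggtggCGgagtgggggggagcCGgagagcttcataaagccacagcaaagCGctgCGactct

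CpG counts over the whole 300-base window were at or above the median of 14 for all 35116 RefSeq windows. TBX20 held 38, TBX21 23, TBX1 22, EOMES and TBX18 21 each, TBX4 18, and the 2 TBX5 windows 21 and 15. Only 9.91% of all windows held as many CpGs as the TBX20 window. The T-box consensus TCACACC, searched on both strands, was in none of the 8 windows and in 3.45% of all windows, which says only that these letters are not there.

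Marking of these windows differed between members. The TBX21 and TBX1 windows held a peak in all 30 libraries. The TBX20 window held one in 9 of the 14 other libraries and in 16 of 16 depleted ones, the EOMES window in 7 of 14 and 15 of 16, and the TBX18 window in 4 of 14 and 15 of 16. In the knockout experiment alone, those were 1, 1 and 0 of 2 parental libraries, and 4 of 4 KO libraries each. The TBX4 window held a peak in 4 libraries, all of the dTAG parental line, and in no KO parental, KO clone or dTAG clone library at any day. Neither TBX5 window held a peak in any library, although TBX5 was marked further inside the gene. Over the 34961 windows on chromosomes 1 to 22 and X, 23.3% held a peak in every library and 30.6% in none. A larger share of depleted than of other libraries held a peak at 35.7% of those windows, and a smaller share at 10.4%.

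**Figure D1:**
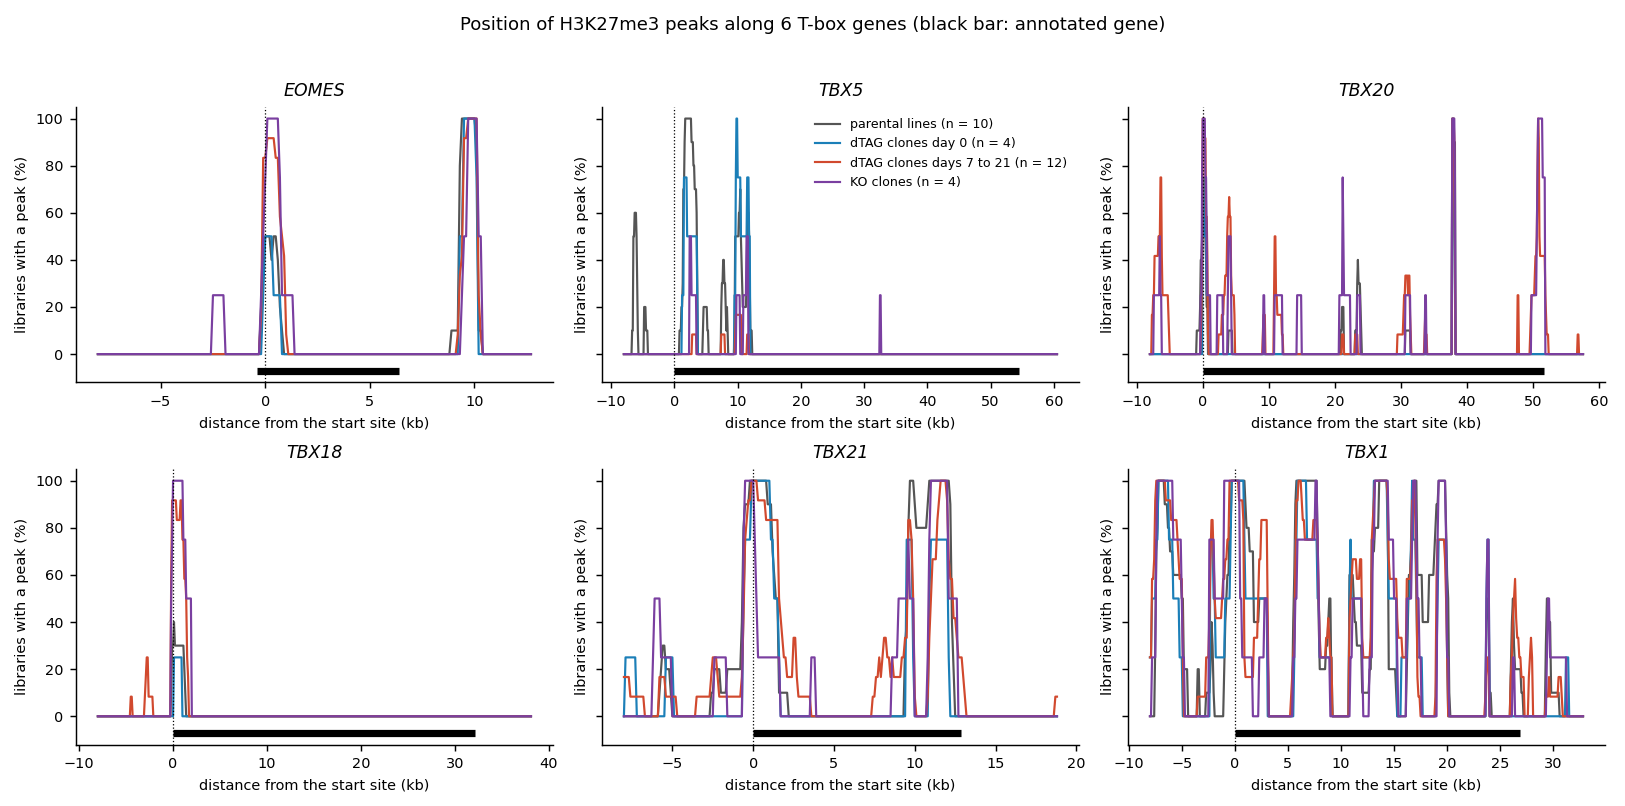
Percent of libraries with an H3K27me3 peak (vertical axis) against distance from the start site in kb (horizontal axis) for 6 T-box genes, by class of library, with the annotated gene as a black bar. EOMES and TBX18 show a peak at the start in a larger share of depleted libraries, TBX5 shows peaks inside the gene that are rarer in depleted ones, and TBX21 and TBX1 are marked at the start in all 30.

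TBX5, a heart and forelimb factor on chromosome 12 (114353911 to 114408442, hg38), was the member that lost coverage in the KO clones. It was 6.25% and 6.40% covered in the KO parental line, 0% and 0% in KO clone 3, and 2.69% and 3.501% in KO clone 12. Both parental values lay above all 4 KO values. In the other experiment, however, the dTAG clones ran from 2.68% to 8.13% at day 0, a range that includes both KO clone 12 values. The difference between the KO clones and the KO parental line was -4.78 percentage points (SE 1.49, 95% interval -7.92 to -1.63). It had limma adjusted p = 0.0317 over the 13977 genes tested. Genes called as lost made up 0.744% of all genes tested in this comparison (1.19% with the replicate number as a block), and 1 of the 8 members tested was among them. That member was TBX5, whose loss in the dTAG clones lay behind the choice of the family. No excess among the members can therefore be read from this count. This call was close to the threshold: without KO parental replicate 1 or 2, KO clone 3 replicate 1 or 2, or KO clone 12 replicate 1, limma gave adjusted p = 0.129, 0.174, 0.0668, 0.0543 and 0.0789. The difference stayed negative in each of these. The call was also lost with only peaks of -log10 q of at least 2 (adjusted p = 0.149) and with peaks joined over gaps of up to 3 kb (0.519).

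The TBX5 coverage came from stretches near the start of the gene. The one nearest to the start, 0.711 to 3.65 kb inside the gene (chr12:114404795-114407731), held a peak in 13 of 14 other libraries and in 3 of 16 depleted ones. A second, 9.44 to 12.3 kb inside, held a peak in 13 of 14 and 5 of 16. Most depleted libraries were of the dTAG clones, whose TBX5 loss lay behind the choice of the family, so these pooled counts are a description. In the knockout experiment alone, both stretches were marked in 2 of 2 parental libraries and in 2 of 4 KO libraries. Another stretch, 5.76 to 6.745 kb upstream of the start, was marked in 6 of 10 parental libraries and in no library of any clone. The TBX5 peaks were weak in the authors' deposited lists, with a median -log10 q of 2.10 and 21 of 48 peaks under 2. This was not particular to TBX5: medians of the members ran from 1.84 (TBX4) to 8.89 (TBX3), with TBX18 at 2.08.

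After each library was scaled by its called length, the TBX5 difference was -7.70 percentage points (limma adjusted p = 0.00265). Called lists were longer in the KO clones, so this scaling lowers their values and moves even unchanged coverage toward loss. Median differences over all 13977 genes were 1.46 as measured and -1.31 after scaling, and TBX5 lay 6.24 and 6.40 points below them.

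TBX20, a heart factor on chromosome 7 (35202430 to 35254100), was the member that gained coverage in the KO clones. It was 2.35% and 1.83% covered in the KO parental line, 9.40% and 10.4% in KO clone 3, and 7.20% and 5.95% in KO clone 12. All 4 KO values were above both parental ones, and each KO clone 3 value was above each KO clone 12 value. The difference was 6.15 percentage points (SE 1.60, 95% interval 2.78 to 9.53), with limma adjusted p = 0.0110. Gains were common in this comparison, with 18.0% of all genes called, or 21.7% with the replicate block, so 1 of 8 members is near the background. The TBX20 call was lost without KO parental replicate 1 (adjusted p = 0.0631) or 2 (0.103) and after scaling by called length (2.95 points, adjusted p = 0.0895). It was lost too with stricter peaks (0.263), lists shortened to equal length (0.221), joined gaps (0.143) and only the compared groups fitted (0.0517).

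**Figure D2:**
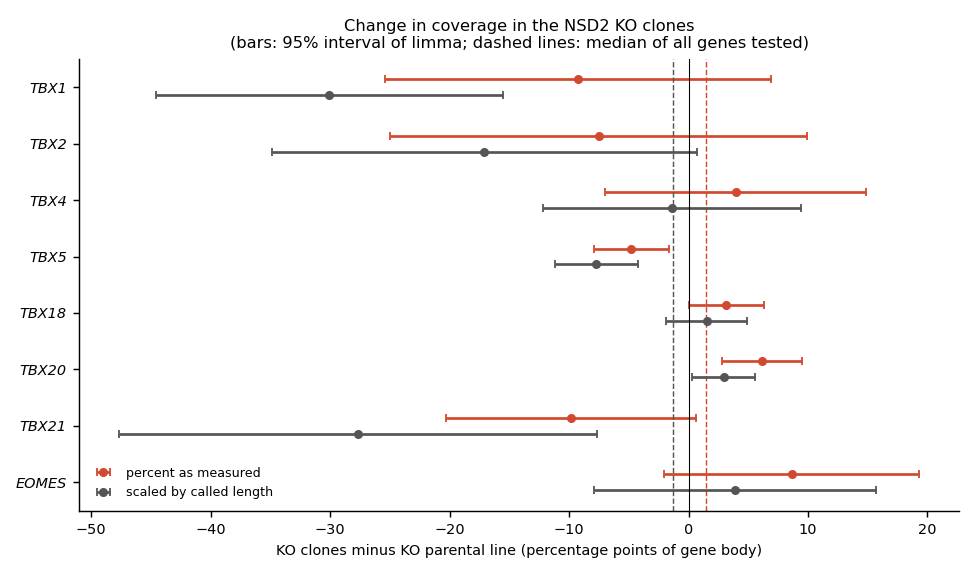
Difference in covered percent, KO clones minus KO parental line, in percentage points (horizontal axis) for the 8 members tested, as measured and after scaling by called length, with 95% intervals. Only the intervals of TBX5 and TBX20 lie on 1 side of 0 in both forms, while those of TBX1 and TBX21 move far to the left after scaling.

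Along TBX20, a stretch that spans the 3′ end of the gene, 49.5 to 52.1 kb from the start (chr7:35202034-35204592), held a peak in 0 of 14 other libraries and in 16 of 16 depleted ones. In the knockout experiment that was 0 of 2 against 4 of 4. This stretch was chosen after its values were seen, and how many stretches genome-wide split this way was not worked out. The start of the gene (from 0.960 kb before to 1.13 kb after it) was marked in 10 of 14 and 16 of 16. A short stretch of 0.567 kb about 38 kb inside the gene was marked in 29 of 30 libraries whatever the group. Upstream, a stretch 5.07 to 7.76 kb before the start was marked in 0 of 14 and 12 of 16. Called length was higher in depleted libraries, and TBX20 coverage followed it across all 30 libraries (Pearson r = 0.898, a description over libraries that share groups). With lists shortened to equal length the KO difference was 2.115 points, and with the estimated background pileup as a covariate it was 5.305 points (limma adjusted p = 0.00973).

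EOMES, a factor of effector lymphocytes and of early mesoderm on chromosome 3 (27715953 to 27722713), was higher on average in the KO clones but did not pass the test. It was 11.6% and 0% covered in the KO parental line, 13.1% and 11.9% in KO clone 3, and 23.6% and 9.08% in KO clone 12. Parental replicate 1 lay within the range of the KO values. The difference was 8.63 percentage points (95% interval -2.07 to 19.3), with limma adjusted p = 0.301. Within replicate 1 the KO libraries were at 13.1% and 23.6% against 11.6%, and within replicate 2 at 11.9% and 9.08% against 0%. When only peaks seen in both libraries of a group were kept, the difference was 14.4 points and limma adjusted p = 0.00191. That alternative sets a peak found in 1 parental library to 0.

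EOMES coverage came from a single stretch at its start. From 0.283 kb before to 1.39 kb after the start site (chr3:27720932-27722606), a peak was found in 8 of 14 other libraries and 15 of 16 depleted ones. In the knockout experiment alone, that was 1 of 2 parental and 4 of 4 KO libraries. Most depleted libraries were of the dTAG clones, whose EOMES gain lay behind the choice of the family. A second stretch lay 8.88 to 10.3 kb downstream of the start, beyond the 3′ end, and was marked in all 30 libraries. The EOMES values therefore turn on the start alone. EOMES followed called length (Pearson r = 0.702 over the 30 libraries, a description), and in the KO parental and dTAG parental lines it was higher in the replicate with the longer list in 4 of 5 groups, the fifth being at 0% in both.

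The other heart and limb members did not pass the test in the KO comparison. TBX18, needed for the sinoatrial node and epicardium (chromosome 6, 84732496 to 84764598), was 3.67% and 0% covered in the KO parental line, 6.10% and 3.39% in KO clone 3, and 6.10% and 4.33% in KO clone 12. One KO value lay below the higher parental one, and the difference of 3.15 points had limma adjusted p = 0.175. Its coverage was confined to a stretch at the start of the gene, from 0.267 kb before to 1.96 kb after it, marked in 5 of 14 other libraries and 16 of 16 depleted ones.

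TBX1, a pharyngeal and outflow tract factor (chromosome 22, 19756703 to 19783593), was the most covered member on average. It was 48.9% and 26.8% covered in the KO parental line, 30.3% and 24.6% in KO clone 3, and 36.0% and 23.6% in KO clone 12. The groups overlapped, and the difference of -9.23 points (95% interval -25.4 to 6.94) had limma adjusted p = 0.516. After scaling by called length it was -30.1 points with limma adjusted p = 0.00444, though scaling itself lowers the KO values. With the pileup covariate the difference was -14.7 points (limma adjusted p = 0.0298), and without KO parental replicate 1 it was 1.84. Peaks at the start and at stretches 5.30 to 9.12 kb and 10.7 to 20.2 kb inside TBX1 were present in all 30 libraries.

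TBX2 and TBX4 lie 43.0 kb apart on chromosome 17 (TBX2 61399843 to 61409466, TBX4 61452422 to 61485110), and neither passed the test. TBX2 was 25.1% and 12.6% covered in the KO parental line and 4.22% to 22.1% in the KO clones (difference -7.50 points, limma adjusted p = 0.661). Stretches that overlap the left end (chr17:61398438-61403906) and the right end (chr17:61409456-61413139) of TBX2 were each marked in all 30 libraries. TBX4 was 18.2% and 0.893% in the KO parental line and 9.79% to 16.7% in the KO clones (difference 3.95 points, adjusted p = 0.730). The TBX4 difference changed sign after scaling (-1.38 points). The spread between the 2 parental libraries exceeded both differences.

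The stretch between TBX2 and TBX4 was more covered in depleted libraries. Between the genes, 7.28% ± 0.461 was covered in the KO parental line (SD, n = 2) and 14.7% ± 5.03 in the KO clones (SD, n = 4, lowest 8.57%), and the groups did not overlap. The same stretch was 7.62% ± 0.509 covered in the dTAG clones at day 0 but 17.2% ± 7.32 on day 21 (SD, n = 4 each), and 9.59% in the dTAG parental line at day 21. One stretch in it, 7.81 to 9.35 kb before the TBX4 start (chr17:61447134-61448680), was marked in 0 of 14 other libraries and 15 of 16 depleted ones. At the TBX4 start, a stretch (1.97 kb before to 0.669 kb after) was marked in 9 of 14 other libraries and 3 of 16 depleted ones. These lengths and counts were not tested, and total called length was also higher in the depleted groups.

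TBX3, the neighbour of TBX5, and TBX15 were too little covered to enter the test, which required a mean of 1%. TBX3 (chromosome 12, 114670255 to 114684175) was at 0% in all 6 libraries of the knockout experiment and reached at most 2.09% elsewhere. A stretch of 1.25 kb that overlaps the right end of the gene (chr12:114683885-114685131) was nevertheless marked in all 30 libraries, lying mostly outside the annotated bases. TBX3 is thus not free of the mark. With no promoter window for TBX3, the distance of this stretch from its start was not worked out. The 262 kb between TBX5 and TBX3 was 0.611% ± 0.431 covered in the 14 other libraries and 0.475% ± 0.324 in the 16 depleted ones (SD). TBX15 (chromosome 1, 118883047 to 118989510) was 0.454% and 0.318% covered in the KO parental line, 1.11% and 3.25% in KO clone 3, and 0% and 0.377% in KO clone 12.

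TBX21, the T-bet gene (chromosome 17, 47733236 to 47746122), was broadly marked in every library. It was 34.8% and 27.3% covered in the KO parental line, 25.8% and 14.7% in KO clone 3, and 21.0% and 23.2% in KO clone 12. Both parental values lay above all 4 KO values, but the difference of -9.87 points (95% interval -20.3 to 0.599) had limma adjusted p = 0.207. After scaling by called length it was -27.6 points with limma adjusted p = 0.0411, though scaling itself lowers the KO values. TBX21 and EOMES, which act together in lymphocytes, thus differed in level: the start of TBX21 was marked in 14 of 14 other libraries and that of EOMES in 8 of 14.

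Over the 8 members tested, 4 differences were above 0 in the KO comparison, with a median of -0.813 points against 1.46 over all genes. The split of all calls depended on the scale, with 2510 genes gained and 104 lost as measured and 1608 and 1893 after scaling by called length. Scaling divides by list lengths that were longer in the KO clones, which itself moves calls toward loss. After scaling, 3 of the 8 members were called lost (TBX1, TBX5 and TBX21; 13.5% of all genes) and 0 gained (11.5% of all genes).

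**Figure D3:**
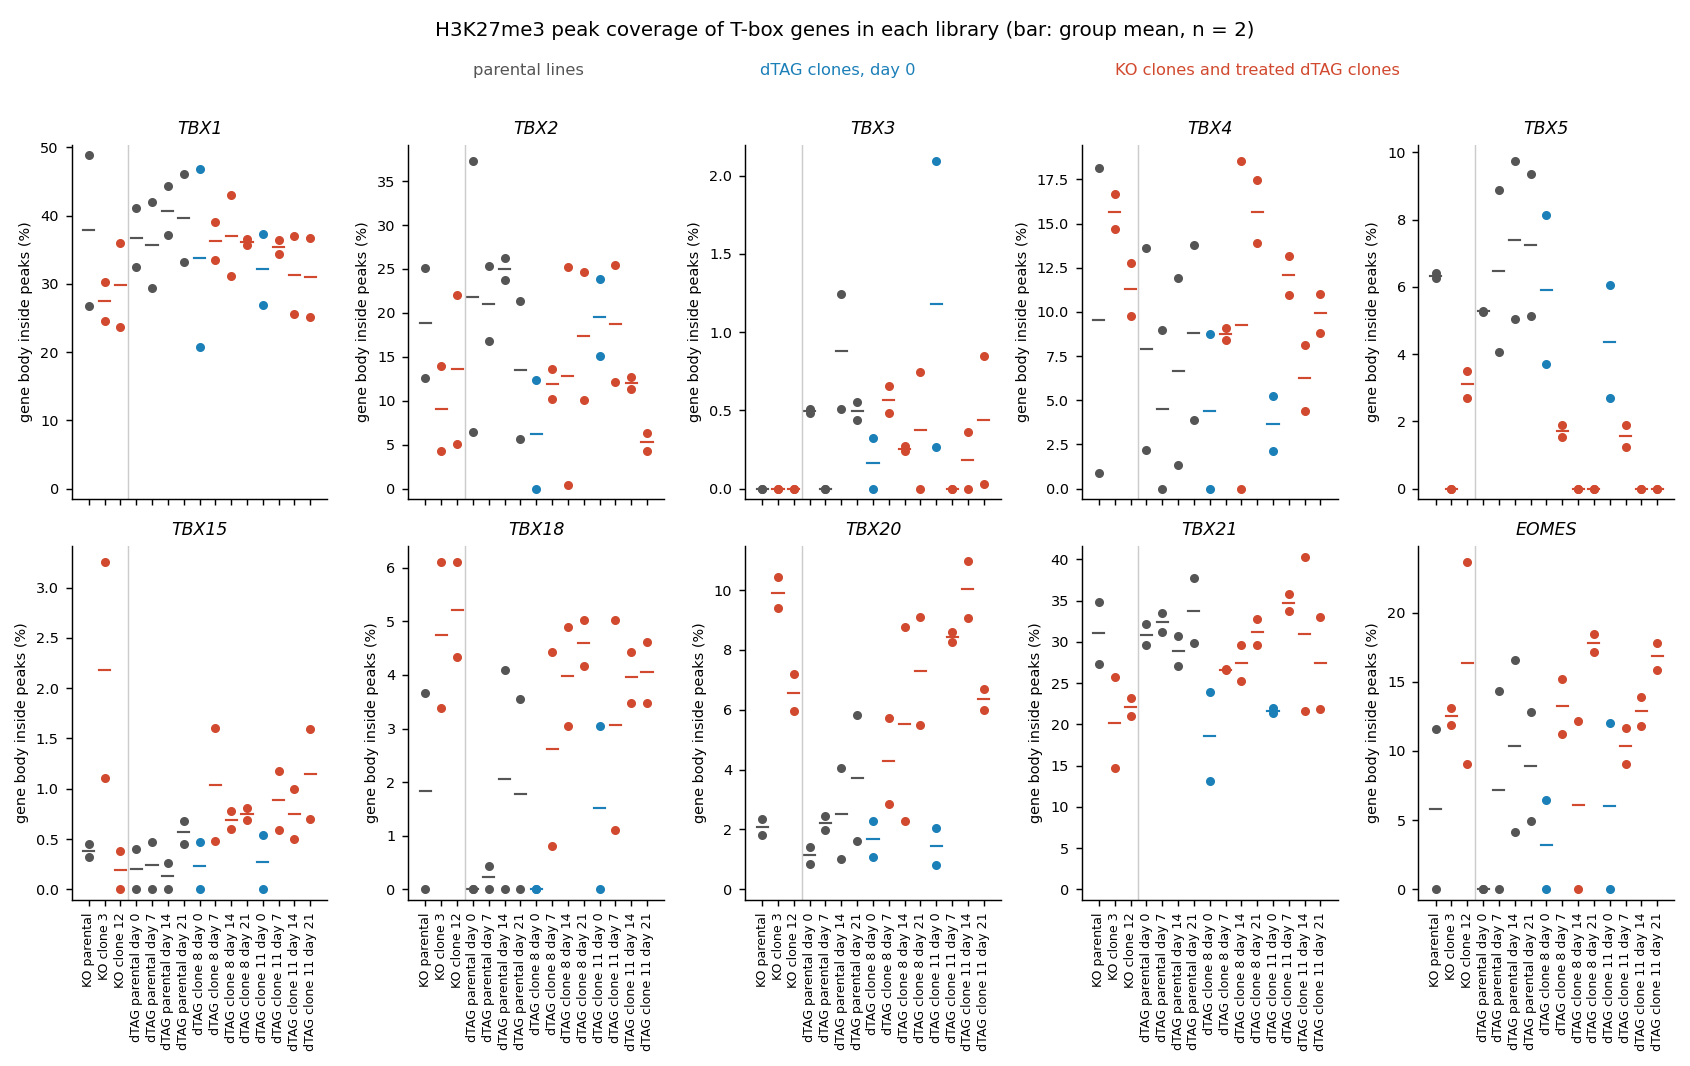
Percent of gene body inside H3K27me3 peaks (vertical axes, 1 scale per gene) in each of the 30 libraries, by group, for the 10 members, with a bar at each group mean (n = 2). By group mean, TBX5 is lowest in the depleted groups, with 0% in both dTAG clones on days 14 and 21, TBX20 is highest there, and TBX3 and TBX15 reach at most 2.09% and 3.25%.

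Over time in the dTAG clones, TBX5 coverage went to 0%. On day 0, TBX5 was 8.13% and 3.70% covered in clone 8 and 6.04% and 2.68% in clone 11. By day 7 it stood at 1.88% and 1.54% in clone 8 and at 1.89% and 1.25% in clone 11, all below every day 0 value. On days 14 and 21 all 8 clone libraries were at 0%. The dTAG parental line kept its TBX5 coverage under dTAGV-1: 5.24% and 5.29% on day 0, 8.87% and 4.05% on day 7, 9.73% and 5.06% on day 14, then 9.35% and 5.14% on day 21. The 8 clone libraries at 0% had called lengths of 78.3 to 153 Mb, against 39.0 to 99.8 Mb in the 10 parental ones.

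EOMES was higher on average after day 0 in both clones, with a wide spread until day 21. Clone 8 had EOMES at 6.48% and 0% on day 0, 15.2% and 11.2% on day 7, 12.2% and 0% on day 14, then 18.5% and 17.1% on day 21. Clone 11 had 12.0% and 0% on day 0, 9.04% and 11.7% on day 7, 13.9% and 11.8% on day 14, then 17.8% and 15.9% on day 21. Of the 3 later days, day 21 was the only one on which all 4 clone values exceeded all 4 day 0 values. EOMES in the dTAG parental line was at 0% in both libraries on day 0, at 14.3% and 0% on day 7, at 16.6% and 4.11% on day 14, then at 12.8% and 4.97% on day 21.

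TBX20 was 2.27% and 1.09% covered in clone 8 on day 0 and 2.05% and 0.828% in clone 11. Day 7 gave 2.85% and 5.72% in clone 8 and 8.27% and 8.60% in clone 11. Day 14 gave 8.77% and 2.29% in clone 8 and 11.0% and 9.08% in clone 11. All day 21 values, 9.11% and 5.51% in clone 8 and 6.01% and 6.69% in clone 11, were above every day 0 value. The dTAG parental line ended at 5.84% and 1.61%, so its replicate 1 lay within the day 21 range of the clones.

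Relative to day 0, the mean difference at day 21 in the dTAG clones was 12.7 points for EOMES, 9.21 for TBX21, 8.80 for TBX4, 5.27 for TBX20, 3.56 for TBX18, 0.555 for TBX1, -1.49 for TBX2 and -5.14 for TBX5. The median over the 8 was 4.42 points, beside 2.05 over all genes. For TBX21 the dTAG clones averaged 20.1% on day 0 (SD 4.75, highest 23.9%, n = 4) and 29.3% on day 21 (SD 5.22, n = 4). The 10 parental libraries ran from 27.1% to 37.7%. All day 0 clone values thus lay below the parental range, and the day 21 mean lay within it. TBX21 was higher on average here and lower in the KO clones. After scaling by called length it was lower in both (-14.1 points in the dTAG clones), but scaling itself lowers the values of longer lists. The difference between the experiments was not tested. The day 21 differences of TBX1, TBX2 and TBX4 also changed sign under some alternatives.

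**Figure D4:**
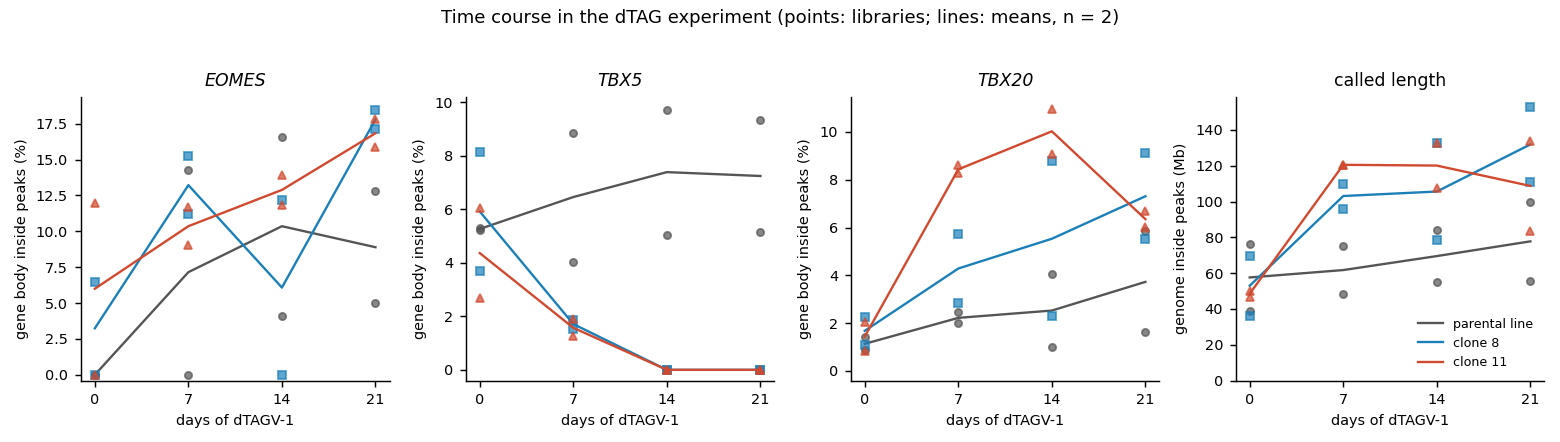
Covered percent of EOMES, TBX5 and TBX20, and called length in Mb (vertical axes), against days of dTAGV-1 (horizontal axis) in the dTAG parental line and clones 8 and 11, with points for libraries and lines through means (n = 2). TBX5 reaches 0% in both clones at day 14, when their mean called length is above its day 0 level. EOMES and TBX20 are higher at day 21 than at day 0 in all 3 lines by the mean.

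In the dTAG parental line, which carries no tagged NSD2, day 21 of dTAGV-1 against day 0 gave 0 of 8 members called by limma, with 0.0143% of all genes gained and 0% lost, and 536 genes at an unadjusted p under 0.05. The difference was 8.89 points for EOMES (95% interval -3.46 to 21.2), 2.59 for TBX20 (-1.31 to 6.49) and 1.98 for TBX5 (-1.65 to 5.61), each with adjusted p = 1. The other 5 members tested differed by 2.96 points (TBX1), -8.35 (TBX2), 0.915 (TBX4), 1.77 (TBX18) and 2.92 (TBX21), also with adjusted p = 1. The TBX5 difference in the parental line was -0.863 points after scaling by called length and -0.128 without day 21 replicate 1.

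Clones of one kind were compared to see how far the members varied between them. KO clone 12 minus KO clone 3 gave 0 of 8 members called by limma, against 0.0930% of all genes gained and 3.86% lost. The difference was 3.87 points for EOMES (95% interval -8.48 to 16.2, adjusted p = 0.905) and -3.34 for TBX20 (-7.24 to 0.554, adjusted p = 0.437). TBX5 was 3.10 points higher in clone 12 (-0.532 to 6.73, adjusted p = 0.439). The other 5 members tested differed by 2.34 points (TBX1), 4.48 (TBX2), -4.40 (TBX4), 0.470 (TBX18) and 1.92 (TBX21), with limma adjusted p from 0.881 to 0.998. The EOMES difference changed sign without KO clone 12 replicate 1 (-3.41 points).

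Treated dTAG clone 11 minus clone 8, averaged over days 7, 14 and 21, also gave 0 of 8 members called, against 0.0286% of all genes gained and 0.00715% lost, with 620 genes at an unadjusted p under 0.05. TBX20 was 2.56 points higher in clone 11 (95% interval 0.311 to 4.81, adjusted p = 1). TBX5 differed by -0.0465 points (-2.14 to 2.05) and EOMES by 0.993 points (-6.14 to 8.12). The other 5 members tested differed by -3.92 points (TBX1), -2.0 (TBX2), -1.81 (TBX4), -0.0332 (TBX18) and 2.64 (TBX21), all with limma adjusted p = 1. TBX3 and TBX15 were not tested in these 3 comparisons, and their levels are in the plot of members by library. Without clone 8 day 14 replicate 2, the EOMES library at 0%, that difference was -1.03.

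Among the other 7 T-box genes, 4 entered the test and TBX19, the pituitary factor of corticotroph cells (chromosome 1, 168280877 to 168314426), was called gained in the KO clones, as were 18.0% of all genes. TBX19 was 5.23% and 3.32% covered in the KO parental line, 16.9% and 17.1% in KO clone 3, and 13.5% and 11.4% in KO clone 12, with no overlap. The difference was 10.4 points with limma adjusted p = 0.0264, but it was -0.847 when all lists were shortened to the same called length. Without KO parental replicate 1 or 2, KO clone 3 replicate 1 or KO clone 12 replicate 1, the TBX19 call was lost (adjusted p = 0.0908, 0.201, 0.0546 and 0.0701), as it was with stricter peaks (0.445), joined gaps (0.255) and scaling (0.109). Its start window, with 3 CpGs, held a peak in 1 of 14 other and 15 of 16 depleted libraries. TBR1, the brain paralog of EOMES and TBX21, was at 0% in all 30 libraries.

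Nearest protein-coding neighbours of the members numbered 16 beside the members themselves, of which 7 entered the test and 2 were called gained in the KO clones, where 18.0% of all genes were. These were BCAS3, left of TBX2 (2.44 points, limma adjusted p = 0.000943), and NT5E, which encodes the CD73 nucleotidase, right of TBX18 (8.95 points, adjusted p = 0.0287). The neighbours of EOMES were at most 0.945% (SLC4A7) and 0.419% (CMC1) covered in any library. Beside TBX5, RBM19 reached 1.99% and TBX3 2.09%.

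Genes that act with the members were followed as 2 lists. Of 14 heart and limb genes, 12 were tested and 2 were gained and 1 lost in the KO clones by limma, beside 18.0% and 0.744% of all genes, with a median of 3.75 points against 1.46 over all genes. ISL1, a factor of second heart field progenitors, had 0% in both parental libraries, while the KO clones averaged 11.3% (SD 10.6, n = 4, adjusted p = 0.0387). NKX2-5, a cardiac partner of TBX5 and TBX20, fell from a mean of 12.3% (SD 2.53, n = 2) to one of 1.88% (SD 3.76, n = 4, adjusted p = 0.00802). GATA6, another cardiac factor, rose from 2.89% ± 0.790 to 12.0% ± 3.52 (adjusted p = 0.00155). Of 12 lymphocyte genes, 11 were tested, 0 were lost and 1 was gained, also beside 18.0% of all genes: CD8A, the T cell co-receptor, rose from 4.78% ± 0.158 to 17.5% ± 3.47 (adjusted p = 0.00458). The lymphocyte median was 2.86 points.

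By Pearson correlation over the 30 libraries and all tested genes, those most like TBX5 were ZNF577 (r = 0.928), TMEM200B (0.917), ZNF420 (0.886), GBX2 (0.852) and FAM90A20 (0.846), the last of a multicopy family whose reads are hard to place. Those most like EOMES were MKRN3 (0.836), ARF1 (0.804), SLA2 (0.801), SLC43A1 (0.797) and COCH (0.789). Libraries share groups and list length, so these are descriptions: called length itself had r = -0.594 with TBX5 and 0.702 with EOMES.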

How the data were processed

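Per the submitters' processing notes, the authors used MACS3 3.0.2, fastp 0.24.0, Bowtie2, Picard, SAMtools, ChIPseeker 1.42.1, deepTools 3.5.1 and DESeq2 with hg38. Their roles are not stated there. Each library started from 50000 nuclei and 13 PCR cycles, per the labels' protocols. The deposited files are broad peak lists, 1 per library. The use of IgG as a control is not given in the sources used here. The score of a deposited peak is -log10 q times 10, the deposited fold column is a ratio of enrichment over background, and the authors' -log10 p and -log10 q belong to single peaks. The lists carry no read counts, so precision rests on replicate spread. The 10 IgG, H3K27ac and H3K4me3 libraries were not analysed here.

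Touching peaks on chromosomes 1 to 22 and X were merged, and each of 19451 protein-coding genes of at least 1 kb (RefSeq, GRCh38.p14) was scored by its percent covered. Depth was estimated by solving fold and p of the shortest 2% of peaks for the background pileup (tolerance 0.002), which assumes a pseudocount of 1 and a genome-wide background. Genes with a mean of 1% to 99% (13977) were fitted with limma 3.58.1 in R 4.3.3 (15 group means, 15 residual degrees of freedom, trend), with Benjamini-Hochberg adjusted p under 0.05. The fit was tested on simulated data, drawn as independent normal values without replicate pairing or differences between clones. The differences added there were larger than those of TBX5 and TBX20, so that test does not cover calls of their size. The adjusted p pools spread between the 2 libraries of a group and does not measure spread between clones. Python 3.11.15, numpy 2.4.6, pandas 2.3.3 and matplotlib 3.10.9 were used.

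The members and lists were chosen with earlier results of these data known. Text names the members in each comparison (TBX3 and TBX15 could not be tested), other T-box genes that were called plus TBR1, neighbours of EOMES and TBX5, up to 3 called genes per list, and the 5 genes most like EOMES and TBX5. Stretches of a gene named in the text were chosen after their values were seen. The share of all stretches with such splits between depleted and other libraries was not worked out. Alternatives were stricter peaks, scaling or shortening of lists, a pileup covariate, gap joining, flanks, no filter, shared peaks, a smaller fit, a replicate block and leaving out libraries. Same-numbered libraries deviated together in all 3 pairs of groups of the KO comparison (r 0.165 to 0.224). They also did for dTAG parental days 21 and 0 (r = 0.5125). Over 15 pairs of treated dTAG clone groups r was 0.0335 to 0.370, and over all 105 pairs 0.0335 to 0.558. The labels' replicate numbers were taken to pair the samples in the block fit, from the data and not from a stated batch. Unless the replicate block is named, p-values come from fits that ignore this pairing.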

Additional observations from a re-analysis of the deposited data

Results flagged for a closer look

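In 5 of 47 sets of 4 libraries, the library farthest out stood apart from the other 3. Chance gives about 1 in 20 for independent, normally spread values. These sets join 2 clones, share libraries and hold many values at 0, so no excess can be read from the count. In clone 11 at day 0, replicate 2 had TBX3 at 2.09% against 0% to 0.323% and TBX18 at 3.05% against 0% in the other dTAG clone libraries of that day. In clone 8 at day 14, replicate 2 had EOMES at 0% against 11.8% to 13.9%; its list was 78.3 Mb long, the shortest among the depleted libraries. In clone 11 at day 21, replicate 2 had TBX1 at 25.1% against 35.7% to 36.8% and TBX15 at 1.59% against 0.686% to 0.806%.

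In 10 cases every library of a group moved one way from its day 0 or parental mean and every library of another group the opposite way. None of these differences was tested. Groups of 2 libraries can part in this way by chance, and the number of cases that chance would give was not worked out. For TBX2, the change at day 14 in clone 11 was 10.6 points below that in the parental line (difference -10.6). At day 21 the TBX2 change in clone 8 was 19.6 points above the parental line's, and clone 11 minus clone 8 was -25.4. For TBX3, clone 8 minus parental was 0.902 at day 7, clone 11 minus clone 8 was -1.58 at day 7 and -1.09 at day 14, and clone 11 minus parental was -1.38 at day 14. TBX15 moved by -1.99 points in KO clone 12 relative to KO clone 3. For TBX21 at day 14, the change was 10.8 points higher in clone 8 and 11.3 higher in clone 11 than in the parental line.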

How the results depend on the processing

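In the KO comparison, 2 members were called as reported, 0 with only peaks of -log10 q of at least 2, 0 with lists shortened to equal length, 0 with gaps up to 3 kb joined, 5 with only peaks shared by both libraries of a group (TBX4, TBX5, TBX18, TBX20 and EOMES), 1 when the fit held just the compared groups, 3 with the pileup covariate (TBX1, TBX5 and TBX20), 3 after scaling (TBX1, TBX5 and TBX21), and 0 to 2 when leaving out single libraries. Under the first 5 of these, genes gained numbered 367, 251, 1664, 3539 and 754 (2510 as reported), and 1608 after scaling by called length. Genes lost numbered 25, 227, 56, 406 and 44 (104 as reported), 1893 after scaling and 413 with the pileup covariate. Leaving out single libraries gave 1078 to 2679 gained and 71 to 90 lost. With the replicate block, genes lost numbered 167 and genes gained 3030, and the calls of TBX5 (adjusted p = 0.0114) and TBX20 (0.00506) held; no other call on a member changed in that fit. TBX5 kept a negative KO difference in every alternative that gave a value, -7.70 to -4.04, and was too little covered to be tested in the shortened lists. Between clones, 1 member was called with shared peaks only in each comparison, and 1 (TBX15) between the KO clones with no filter. These differences changed sign under the alternatives named, and ranges are those over single libraries left out. In KO they were TBX1 (-20.3 to 1.84, the latter without KO parental replicate 1), TBX4 (-1.38 scaled, -4.68 to 12.6, the former without KO parental replicate 2) and TBX19 (-0.847 shortened). In the dTAG parental line they were TBX1 (-14.4 scaled, -3.79 shortened, -5.73 with the pileup covariate, -3.49 to 9.41), TBX2 (6.53 shortened, 1.22 joined, -23.8 to 7.05), TBX4 (-1.27 scaled, -3.46 joined, -4.94 covariate, -4.79 to 6.62), TBX5 (-0.863 scaled, -0.128 to 4.09) and TBX21 (-9.47 scaled, -1.02 to 6.86). Between KO clones they were EOMES (-12.5 shortened, -0.0358 with 5 kb flanks, -3.41 to 11.1), TBX1 (-3.84 to 8.52), TBX2 (-4.05 to 13.0), TBX4 (0.399 scaled, 1.07 shared peaks), TBX18 (-0.885 to 1.82) and TBX21 (-3.48 stricter peaks, -0.652 shortened, -3.64 to 7.48). Between treated dTAG clones they were EOMES (-1.03 to 3.02), TBX2 (1.91 shortened, 4.27 joined, -6.14 to 2.14), TBX4 (2.71 stricter, 0.123 shared, -4.90 to 1.27), TBX5 (0.0936 covariate, -0.154 to 0.0614, and 0 with stricter or shared peaks), TBX18 (1.68 stricter, 0.0449 scaled, 0.0459 flanks, 0.0994 covariate, -0.687 to 0.621) and TBX21 (-0.462 to 5.75). The untested day 21 differences in the dTAG clones changed sign, over all alternatives, for TBX1 (-33.0 to 11.4), TBX2 (-14.7 to 6.10), TBX4 (-0.754 to 18.1) and TBX21 (-14.1 to 16.4), and kept it for the other 4. The cause was not tested. In a shallow library a region that is not listed can still carry the mark, and read counts were not at hand.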
